A study of Mus musculus with 4 samples.

Results

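Titin, the Z-disc proteins and the proteins that hold the thick filaments together form the scaffold of the sarcomere, the contractile unit of heart muscle. The genes described here are 10 such genes, chosen by symbol: Ttn, Tcap, Actn2, Ldb3, Myoz2, Nebl, Flnc, Mybpc3, Myom1 and Myom2. All 10 were found in each of the 4 libraries, among 17550 genes with a read in any library. The libraries came from the left ventricle of C57BL/6 mice aged 8 weeks, taken 3 days after an experimentally induced myocardial infarction. They were wild-type non-infarcted, wild-type infarcted, non-infarcted labelled Neil3-/- and infarcted labelled Neil3-/- tissue, with 1 library per group. All 4 groups thus had an infarct, and no sham-operated heart was analysed here. The labels do not say which part of Neil3 was deleted, or whether a library was made from 1 mouse or from a pool.

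With 1 library per group no difference has a replicate check, and no p-value is given. Levels are given as RPKM, the read number divided by gene length in kilobases and by library size, which allows genes of different length to be compared. Intervals in parentheses are exact 95% intervals that cover counting error only. A gene is counted as lower or higher where the log2 ratio of (RPKM + 1) was at least 1 in size, which is 2-fold. Only genes that reached 1 RPKM in a library of the comparison were counted. Each library held between 14.3 M and 18.2 M uniquely assigned reads (M, mega). Neil3, which codes for a DNA repair glycosylase, was at 1.83 and 3.95 RPKM in the wild-type libraries (non-infarcted and infarcted in turn). It was higher, at 12.0 and 18.5 RPKM, in those labelled Neil3-/-. Since the deleted part is not known, a read number over the whole gene cannot check the genotype labels. Each genotype direction below is therefore between libraries as labelled. Cardiomyocyte genes were abundant in all libraries, while Myh1, Myh2 and Myh4, the fast myosin heavy chains of skeletal muscle, were at or near 0 in all 4. The symbol Myh2 was not listed in any library and was taken as 0 reads. Other genes of the skeletal muscle marker list were present: Acta1, which the heart also expresses, was at 732 and 1163 RPKM in the non-infarcted libraries (wild type first), and Myl1 at 37.8 and 84.6 RPKM. In the libraries labelled Neil3-/- 3 of 4 compared genes of the list were above the wild-type level without infarction and 5 of 5 with it. Of all genes compared, 6571 of 12226 and 6792 of 12464 were above the wild-type level. The list had median log2 ratios of 0.70 without and 0.48 with infarction, beside 0.01 and 0.02 for all genes. At 2-fold, 1 of 4 and 1 of 5 were higher, beside 0.254% and 0.249% of all genes. These counts are small. The part of skeletal muscle RNA in the results was not tested.

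As background, titin is a giant spring that spans from the Z-disc to the M-band. At the Z-disc, telethonin (Tcap) caps the titin ends, alpha-actinin 2 (Actn2) crosslinks the actin filaments, and cypher (Ldb3), myozenin 2 (Myoz2), nebulette (Nebl) and filamin C (Flnc) bind around that lattice. Myosin-binding protein C (Mybpc3) sits on the thick filaments in the A-band and modulates the cross-bridges, and the myomesins (Myom1 and Myom2) crosslink thick filaments and titin in the M-band. Mutations in most of these genes are known causes of inherited cardiomyopathy.

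The 10 genes were highly expressed in non-infarcted ventricle. Together they took 2.32% (2.32 to 2.33) of all reads in wild-type and 2.19% (2.18 to 2.20) in labelled Neil3-/- non-infarcted tissue, against 1.21% (1.21 to 1.22) and 0.888% (0.884 to 0.892) in the infarcted libraries. Ttn alone gave 35.6% and 35.0% of the members' reads in the non-infarcted libraries, because of its listed length of 101674 bases. Per length it was the second lowest of the 10. In wild-type non-infarcted tissue the order by RPKM was Actn2, Mybpc3, Myoz2, Tcap, Myom1, Myom2, Ldb3, Flnc, Ttn and Nebl, and no 2 neighbours had overlapping counting intervals. Mybpc3 stood above Actn2 in both libraries labelled Neil3-/- and below it in both wild-type libraries. Flnc was the eighth of the 10 in both non-infarcted libraries and the fourth in both infarcted libraries, whereas Tcap was in the fourth place without infarction and with it in the seventh in wild type and in the sixth in the labelled Neil3-/- libraries. The intervals of neighbours overlapped for Myom2 and Tcap in wild-type infarcted tissue and for Tcap and Ldb3 in the infarcted library labelled Neil3-/-. The level of Nebl depends on a listed length of 2980 bases, shorter than the longest Nebl transcript of 8079 bases in the GENCODE annotation of another mouse build, so its place in the order rests on that gene model. The listed length cancels in its ratios between libraries, but which Nebl transcripts are counted can still depend on the model.

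**Figure D1:**
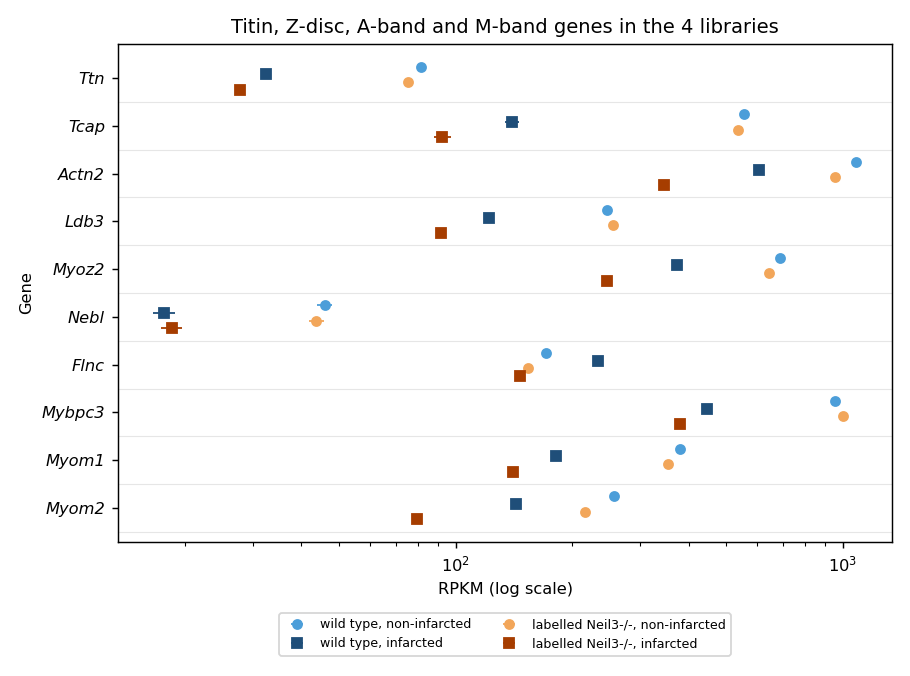
RPKM (log axis) of the 10 genes in each of the 4 libraries; circles are non-infarcted and squares infarcted tissue, blue is wild type and orange labelled Neil3-/-, and bars are exact 95% Poisson intervals, mostly smaller than the symbols. For 9 genes both squares lie left of both circles, and for Flnc the wild-type infarcted library is the highest of the 4.

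The first question was how these genes differed between infarcted and non-infarcted ventricle. In wild type 9 of the 10 had log2 ratios below 0, beside 32.8% of all genes compared, and Flnc was the exception. In the pair labelled Neil3-/- all 10 were below 0, beside 33.7% of genes, Flnc by the least. Counted at 2-fold, 6 of 10 were lower in wild type, where 3.6% of all 12515 genes compared were, and 9 of 10 in the pair labelled Neil3-/-, where 6.07% of 12563 genes were. None was at least 2-fold higher, as were 6.21% and 8.2% of all genes. The median log2 ratio of the 10 was -1.03 in wild type and -1.40 in the pair labelled Neil3-/-, beside 0.21 and 0.24 for all genes compared. TMM scaling, which moved the median of all genes to 0.01 and 0.03, put the members at -1.25 and -1.64 and counted 9 of 10 as lower in each genotype, beside 6.15% and 8.45% of all genes lower and 3.64% and 4.37% higher. Since these are bulk samples, fewer cardiomyocytes and less RNA per cardiomyocyte cannot be told apart.

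Ttn had 81.2 RPKM without and 32.5 RPKM with infarction in wild type, and it was at 75.3 and 27.7 RPKM in the corresponding libraries labelled Neil3-/-. It was 2.50-fold (2.48 to 2.53) lower in infarcted tissue in wild type and 2.72-fold (2.69 to 2.75) lower in the pair labelled Neil3-/-. Both infarcted libraries were thus low and close to each other, and both non-infarcted libraries were high.

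Of the Z-disc genes, Tcap had the largest difference. It was at 554 and 140.0 RPKM in wild type (non-infarcted and infarcted in turn, as in all pairs that follow) and at 536 and 92.4 RPKM in the pair labelled Neil3-/-. In log2 terms it was at -1.98 and -2.52, further down than any of 13 cardiomyocyte reference genes in either genotype. Actn2 was at 1079 and 606 RPKM in wild type and at 953 and 346 RPKM in the pair labelled Neil3-/-, which is 1.78-fold (1.76 to 1.81) and 2.75-fold (2.71 to 2.80) lower. Myoz2, whose product tethers calcineurin to alpha-actinin, was at 689 and 372 RPKM in wild type and at 645 and 247 RPKM in the pair labelled Neil3-/-. These are differences of 1.85-fold (1.80 to 1.91) and 2.62-fold (2.53 to 2.71). Actn2 and Myoz2 were therefore short of 2-fold in wild type and past it in the pair labelled Neil3-/-.

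Ldb3, a PDZ and LIM domain protein that binds alpha-actinin and titin, was at 246 and 122 RPKM in wild type and at 255 and 91.6 RPKM in the pair labelled Neil3-/-. It was 2.02-fold (1.97 to 2.07) and 2.78-fold (2.71 to 2.86) lower in infarcted tissue. Nebl, an actin-binding relative of nebulin, was at 46.0 and 17.7 RPKM and at 43.7 and 18.5 RPKM, or 2.60-fold (2.41 to 2.82) and 2.36-fold (2.19 to 2.55) lower. It was the only one of the 10 whose ratio was the less negative in the pair labelled Neil3-/-, although the counting interval of the difference between both log2 ratios of RPKM, 0.14 (-0.02 to 0.30), included 0.

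Flnc did not follow the other genes. In wild type it had 171 RPKM without and 234 RPKM with infarction, and it was at 154 and 147 RPKM in the pair labelled Neil3-/-. It was thus 1.36-fold (1.34 to 1.39) higher in infarcted tissue in wild type and 1.05-fold (1.03 to 1.07) lower in the pair labelled Neil3-/-. Its log2 ratio kept these signs under the scalings tried, at 0.22 and -0.30 with TMM. In 3 of the libraries its level lay between 147 and 171 RPKM, and the wild-type infarcted library stood above them. Filamin C binds both the Z-disc and the cell membrane and is also known for its part in the turnover of damaged Z-disc proteins.

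The genes of the A-band and M-band were all lower in infarcted tissue in both genotypes. Their log2 ratios ran from -1.10 to -0.84 in wild type and from -1.43 to -1.33 in the pair labelled Neil3-/-. Mybpc3 was at 955 and 445 RPKM in wild type and at 999.7 and 380 RPKM in the pair labelled Neil3-/-, 2.15-fold (2.12 to 2.17) and 2.63-fold (2.60 to 2.67) lower in infarcted tissue. Myom1 was at 379 and 182 RPKM and at 354 and 140.3 RPKM, 2.08-fold (2.04 to 2.12) and 2.53-fold (2.47 to 2.58) lower. Myom2 was at 256 and 143 RPKM and at 216 and 79.6 RPKM, 1.79-fold (1.75 to 1.83) and 2.71-fold (2.64 to 2.79) lower. In all of them the infarcted library labelled Neil3-/- was the lowest of the 4. The ratio of Mybpc3 to Myom1, in RPKM, stayed between 2.44 (2.40 to 2.49) and 2.82 (2.78 to 2.86) over the 4 libraries. The ratio of Myom1 to Myom2 was lowest in wild-type infarcted tissue, at 1.27 (1.24 to 1.30), and highest in the infarcted library labelled Neil3-/-, at 1.76 (1.71 to 1.81), so it was lower in infarcted than in non-infarcted tissue in wild type (1.48 without infarction) and higher in the pair labelled Neil3-/- (1.64 without infarction).

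**Figure D2:**
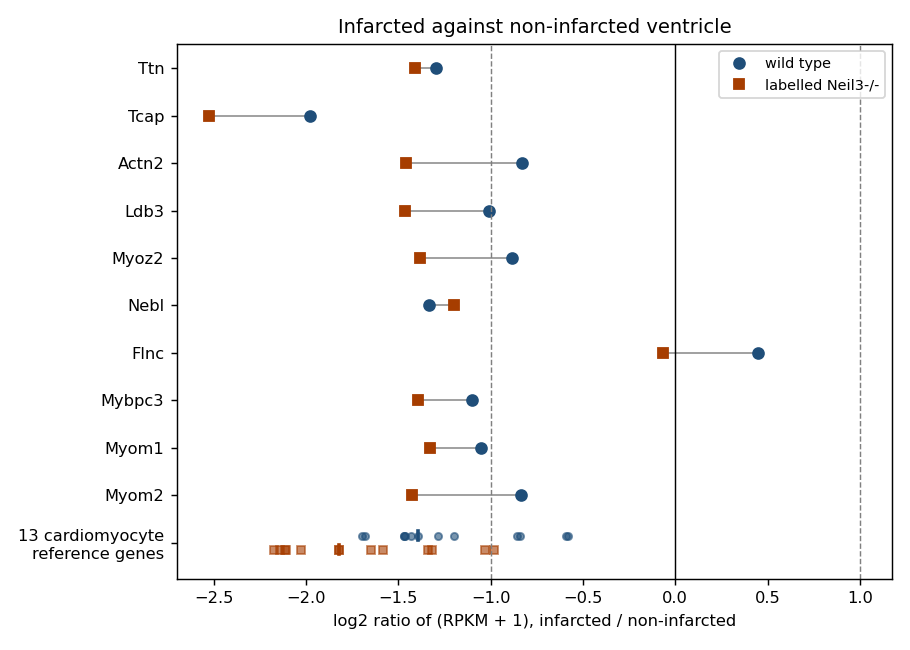
Log2 ratio of (RPKM + 1) between infarcted and non-infarcted tissue for each of the 10 genes and, in the lowest row, for 13 cardiomyocyte reference genes with their median as a bar; circles are wild type, squares the libraries labelled Neil3-/-, and dashed lines mark 2-fold. Tcap lies left of all reference genes (-1.98 and -2.52), Flnc right of all of them (0.45 and -0.07), and the other genes mostly right of the reference medians (-1.39 and -1.82).

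The differences were next set beside 13 reference genes of cardiomyocytes that are no members, among them Actc1, Tnnt2 and Myl2, which code for cardiac actin, troponin T and a ventricular myosin light chain. These had median log2 ratios of -1.39 in wild type and -1.82 in the pair labelled Neil3-/-, with 9 and 12 of 13 at least 2-fold lower. In each genotype 9 of the 10 scaffold genes lay above the reference median, by a median of 0.36 and 0.42 over the 10, and Tcap lay 0.59 and 0.70 below it. The reference genes themselves spread widely, from -1.70 to -0.58 in wild type and from -2.18 to -0.98 in the pair labelled Neil3-/-, and 8 of the 10 scaffold genes were within those ranges in each genotype. The exceptions were Tcap and Flnc. Over the 13 genes, summed RPKM was 47534 and 23243 for wild type, against 45833 and 15819 in the pair labelled Neil3-/-. Summed markers of several other cell types were higher in infarcted tissue: summed RPKM of 9 macrophage and monocyte genes was 453 and 1251 for wild type, against 740 and 1709 in the pair labelled Neil3-/-, that of 9 fibroblast genes 2562 and 4111 against 3114 and 5733, and that of the neutrophil genes 27.7 and 210.4 against 24.5 and 246. Not every marker was higher: 3 of 9 fibroblast genes were below 0 in wild type and 1 of 9 in the pair labelled Neil3-/-, and 2 and 3 of 8 smooth muscle and pericyte genes. The summed skeletal muscle list was lower in infarcted tissue, at 775 and 500.03 RPKM in wild type against 1253 and 661 RPKM in the other pair. Of the neutrophil list the symbol Ly6g was not listed in any library, where no reads and another symbol cannot be told apart. The part of these cells in the members' differences was not tested.

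The bases upstream of the transcription starts of the 10 genes were searched for sequence motifs known from muscle promoters, chosen after the values were seen. RefSeq promoter entries of build GRCm38.p6 were found for 8 of the 10 genes, all but Tcap and Myom2, and the 250 bases before each listed start were searched on both strands. That build differs from the mm9 build of the expression files, and only names link them. A MEF2 motif was found before Ttn, Mybpc3 and Myoz2, which is 3 of 8 genes, and in 2.92% of 32851 such promoter entries. A CArG box, the motif of serum response factor, was found before Ldb3, Myom1 and 1 of the listed starts of Nebl, again 3 of 8, and in 1.47% of all entries. No gene held both, and Actn2 and Flnc held neither in these windows. The E-box CAGCTG occurred in 2 of 8 (13.001% of all entries), CATTCC in 2 of 8 (12.6%) and AGATAA in 2 of 8 (9.99%). For all these motifs the members were counted per gene, with a match at any listed start, whereas the shares are per entry. The 32851 entries belong to 27025 genes, and a share per gene was not computed, so counts and shares are not in like units. A match of letters is a description and not evidence of binding.

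The windows of 100 bases that hold a MEF2 or CArG match are given for these 6 genes. They read 5′ to 3′ on the gene's strand, and capitals mark the match. The MEF2 windows are those of Ttn (chr2:76982659-76982758, minus strand, match beginning 166 bases before the start), Mybpc3 (chr2:91118009-91118108, plus strand, 90 bases before) and Myoz2 (chr3:123034988-123035087, minus strand, 33 bases before).
Ttn: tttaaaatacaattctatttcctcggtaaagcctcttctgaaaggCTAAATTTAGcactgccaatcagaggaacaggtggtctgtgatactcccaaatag
Mybpc3: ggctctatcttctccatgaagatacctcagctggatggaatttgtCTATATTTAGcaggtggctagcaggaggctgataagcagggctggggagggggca
Myoz2: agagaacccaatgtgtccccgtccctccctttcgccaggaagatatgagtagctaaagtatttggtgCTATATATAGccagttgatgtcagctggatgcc
The CArG windows are those of Ldb3 (chr14:34588682-34588781, minus strand, match beginning 35 bases before 1 of its listed starts), Myom1 (chr17:71019413-71019512, plus strand, 99 bases before) and Nebl (chr2:17462964-17463063, minus strand, 162 bases before the start with the match).
Ldb3: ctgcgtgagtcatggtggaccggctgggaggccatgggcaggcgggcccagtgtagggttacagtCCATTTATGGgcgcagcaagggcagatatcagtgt
Myom1: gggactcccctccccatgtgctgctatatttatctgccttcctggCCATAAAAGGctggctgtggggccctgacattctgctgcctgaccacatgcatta
Nebl: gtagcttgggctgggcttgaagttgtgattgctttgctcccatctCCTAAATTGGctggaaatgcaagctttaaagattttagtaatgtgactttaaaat
The genes with a MEF2 match had infarct log2 ratios of -1.30 (Ttn), -1.10 (Mybpc3) and -0.89 (Myoz2) in wild type. Those with a CArG match were at -1.01 (Ldb3), -1.05 (Myom1) and -1.33 (Nebl). In the pair labelled Neil3-/- the former were at -1.41 (Ttn), -1.39 (Mybpc3) and -1.38 (Myoz2) and the latter at -1.47 (Ldb3), -1.33 (Myom1) and -1.20 (Nebl). The searched genes with neither match, Actn2 and Flnc, were at -0.83 and 0.45 in wild type and at -1.46 and -0.07 in the other pair. Whether the motifs have a part in these ratios was not tested.

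Ttn also differed in how much of its gene model was covered by reads. Reads covered 93.67% of the listed 101674 bases in wild-type non-infarcted and 91.59% in labelled Neil3-/- non-infarcted tissue, but 73% and 74.46% in the infarcted libraries. This is 21.0 kb and 17.4 kb less of the gene model with a read. The infarcted libraries still held 561 and 504 Ttn reads per kb, against 1210 and 1076 in the non-infarcted ones. Dst, a long gene that codes for the cytoskeletal linker dystonin, had 595 and 684 reads per kb in infarcted tissue and was covered to 96.63% and 97.54% there, against 97.2% and 97.32% in non-infarcted tissue. Ryr2, the long gene of the calcium release channel, was covered to 98.52% or more in all 4 libraries. These long genes were chosen after the values were seen.

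Among 6873 genes with at least 100 reads per kb in every library, coverage was at least 10 percentage points lower in infarcted tissue for 0.393% in wild type and 0.436% in the pair labelled Neil3-/-, and for 6 genes, 0.0873%, in both. The coverage of Ttn fell by 20.67 points in wild type, the largest of these values, and fell by 17.13 points in the pair labelled Neil3-/-, the fourth largest, while the median change of all these genes was 0.28 and 0.60 points upward. The 10 next longest genes changed by between -8.80 and 3.03 points, the lowest value being that of Macf1 in wild type alone. The other 9 scaffold genes were covered to at least 80.47% and changed by between -5.24 and 0.78 points, Nebl having the lowest values in both respects. Lower read density moved with the Ttn coverage, and its part was not tested. The files give no positions within genes, so they do not show which exons lacked reads. As background, titin transcripts are known to be spliced into shorter and longer forms under the control of the RNA-binding protein Rbm20. Rbm20 was at 43.6 and 20.2 RPKM in wild type and at 40.1 and 13.5 RPKM in the pair labelled Neil3-/-. That is 2.16-fold (2.05 to 2.27) and 2.96-fold (2.80 to 3.14) lower in infarcted tissue. Whether Rbm20 or splicing has a part in the Ttn coverage was not tested.

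**Figure D3:**
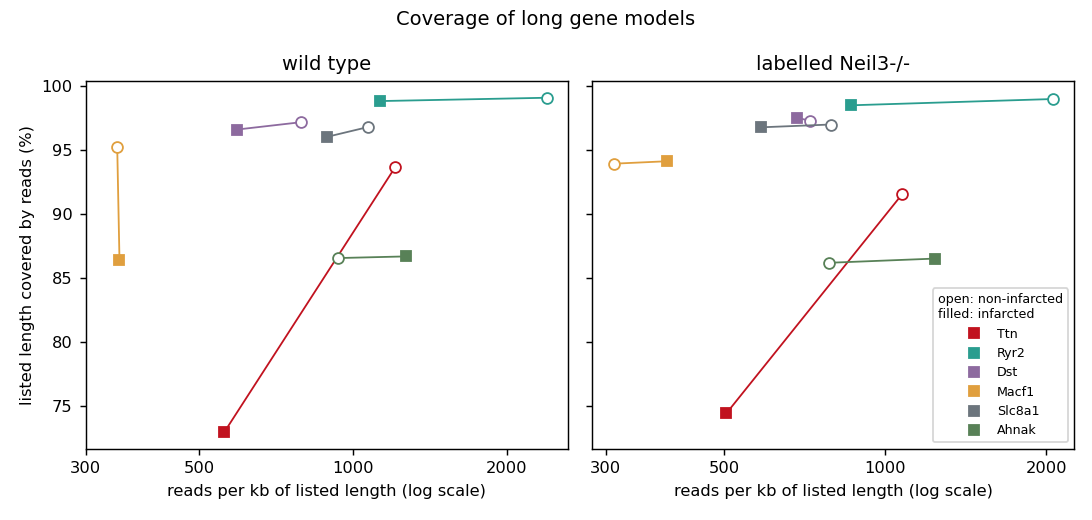
Share of the listed gene length covered by reads (percent) against reads per kb of listed length (log axis) for Ttn and 5 other long genes, in wild type (left) and in the pair labelled Neil3-/- (right); lines join non-infarcted (open circles) and infarcted tissue (filled squares). Ttn goes from 93.67% to 73% and from 91.59% to 74.46%, whereas Dst lies between 96.63% and 97.54% in all 4 libraries, and of the others Macf1 falls from 95.26% to 86.46% in wild type and goes from 93.96% to 94.15% in the libraries labelled Neil3-/-.

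Other genes of the same structures were mixed. Of 26 compared Z-disc genes outside the 10, 3 were at least 2-fold lower and 1 higher in wild-type infarcted tissue, and 7 were lower and none higher in the pair labelled Neil3-/-, with medians of -0.24 and -0.55. For this list and the next ones the shares over all genes were 3.6% lower and 6.21% higher in wild type, and 6.07% and 8.2% in the other pair, so 1 of 26 higher is under the background. The largest differences were those of Cmya5, which codes for myospryn, 4.07-fold (3.92 to 4.23) and 4.30-fold (4.15 to 4.46) lower, and Myot, the gene of myotilin, 3.71-fold (3.21 to 4.30) and 4.15-fold (3.71 to 4.65). Lmod2, a nucleator of cardiac thin filaments, was 2.01-fold (1.95 to 2.07) and 2.26-fold (2.19 to 2.33) lower. Pdlim7, a PDZ and LIM domain gene like Ldb3, instead exceeded its non-infarcted level 2.10-fold (1.98 to 2.22) and 1.93-fold (1.82 to 2.05). Genes of the same structure therefore differed in direction, as Flnc did among the 10.

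Of the other M-band and giant protein genes, 4 of 14 compared were at least 2-fold lower in wild type and 8 of 13 in the pair labelled Neil3-/-, and none was higher, with medians of -0.73 and -1.11. Ckm, the muscle creatine kinase, part of which is bound at the M-band, was 2.84-fold (2.76 to 2.93) and 5.04-fold (4.88 to 5.21) lower. Smyd1, a muscle methyltransferase involved in myosin assembly, was 2.56-fold (2.48 to 2.65) and 3.76-fold (3.63 to 3.91) lower. Trim55, a ubiquitin ligase that binds titin at the M-band, was 2.10-fold (1.91 to 2.30) and 2.64-fold (2.38 to 2.94) lower.

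In the list of genes tied to the titin spring and its splicing, 2 of 8 compared were at least 2-fold lower and 1 higher in wild type, and 3 were lower and none higher in the pair labelled Neil3-/-. Fhl2, a LIM protein that binds the titin spring, stood 2.80-fold (2.72 to 2.87) and 4.28-fold (4.15 to 4.42) lower, as did Rbm24, another splicing factor of muscle, by 1.94-fold (1.84 to 2.04) and 2.36-fold (2.23 to 2.51). Ankrd2, an ankyrin repeat protein that binds the titin spring, was low throughout, at 2.62 and 7.58 RPKM in wild type and 1.97 and 3.20 RPKM in the pair labelled Neil3-/-. It was 2.89-fold (2.04 to 4.16) higher in infarcted tissue in wild type and 1.62-fold (1.04 to 2.58) higher in the pair labelled Neil3-/-. Its relative Ankrd1 was at 1994 and 1885 RPKM and at 1632 and 1083 RPKM.

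The relatives of the muscle genes that are used outside the sarcomere differed from them. Of 11 genes of focal adhesions and non-muscle actin networks, 9 lay above 0 in each genotype, with medians of 0.78 and 0.80, where the 10 scaffold genes had -1.03 and -1.40. That is 2 of 11 below 0, beside 32.8% and 33.7% of all genes, so the count is not far from the background. At 2-fold, wild type had 2 higher and 1 lower, and 4 were higher and 1 lower in the pair labelled Neil3-/- (6.21% and 8.2% of all genes higher), and with TMM scaling 1 was higher in each while 9 of 11 still lay above 0. Actn1, a non-muscle alpha-actinin, stood 2.72-fold (2.62 to 2.82) and 2.48-fold (2.39 to 2.58) above its non-infarcted level, Flna 1.83-fold (1.79 to 1.87) and 2.08-fold (2.03 to 2.12) and Lasp1, an actin-binding relative of Nebl, 2.06-fold (1.95 to 2.18) and 2.33-fold (2.21 to 2.46). Ablim1, an actin-binding LIM protein, stood below it, by 2.04-fold (1.97 to 2.11) and 2.44-fold (2.36 to 2.52).

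Within a library the ratio of a muscle gene to its relative does not depend on the scaling of that library. Actn2 exceeded Actn1 17.2-fold (16.6 to 17.8) without and 3.55-fold (3.48 to 3.63) with infarction in wild type. For the pair labelled Neil3-/- these ratios were 13.9 (13.4 to 14.3) and 2.03 (1.98 to 2.07). Flnc exceeded Flna 1.84-fold (1.80 to 1.89) and 1.37-fold (1.35 to 1.40) in wild type. In the libraries labelled Neil3-/- the ratio was 1.62 (1.58 to 1.66) in non-infarcted and 0.744 (0.732 to 0.757) in infarcted tissue, so Flna was the more abundant filamin only in the latter of the 4 libraries. Nebl went from 1.31 (1.23 to 1.40) to 0.244 (0.227 to 0.262) times Lasp1 in wild type and from 1.24 (1.16 to 1.33) to 0.226 (0.211 to 0.241) in the pair labelled Neil3-/-. These pairs were chosen after the values were seen, and the families share similar sequence, so reads could be split between relatives depending on how the authors counted.

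**Figure D4:**
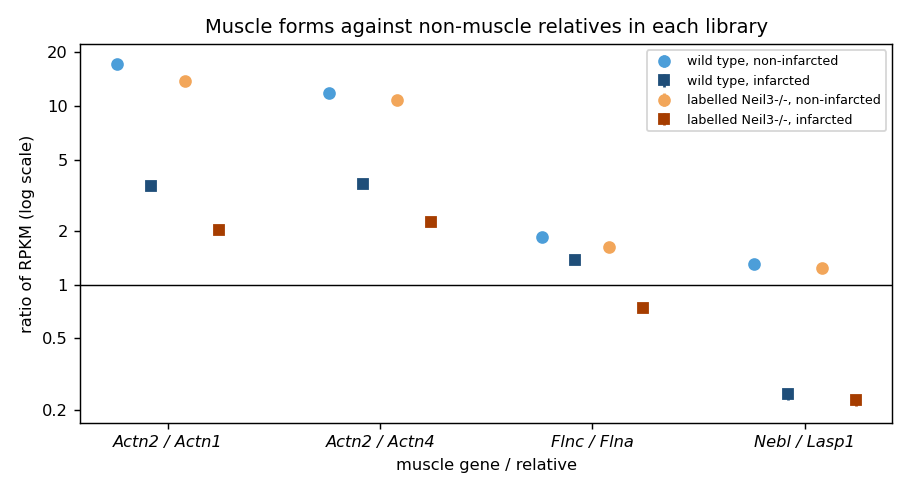
Ratio of RPKM (log axis) between a muscle gene and a relative within each of the 4 libraries; circles are non-infarcted and squares infarcted tissue, blue is wild type and orange labelled Neil3-/-, and bars are exact 95% intervals of the read share, mostly smaller than the symbols. The 4 ratios shown, to non-muscle relatives, are lower in infarcted tissue in both genotypes, and Flnc / Flna is below 1 in the infarcted library labelled Neil3-/- alone.

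Relatives of skeletal muscle were rare. Of 10 such genes, 5 were at 1 RPKM or more in a wild-type library and Actn3, Mybpc1 and Mybph were below 1 RPKM in all 4. Mybpc2, the fast skeletal form of myosin-binding protein C, was at 12.3 and 4.44 RPKM in wild type and at 15.7 and 8.61 RPKM in the pair labelled Neil3-/-, so Mybpc3 exceeded it at least 44.1-fold (40.6 to 48.0) in every library. In wild type this ratio was higher in infarcted tissue, 100.1 (89.0 to 113) against 77.4 (71.7 to 83.6), unlike the pairs with non-muscle relatives, and in the pair labelled Neil3-/- it was lower, 44.1 against 63.7 (59.4 to 68.3). Mybphl, a myosin-binding protein of the atrium, had 75 reads in wild-type non-infarcted tissue and 23 in the non-infarcted library labelled Neil3-/-, against 1 and 2 reads in infarcted tissue. Of 4 other atrial genes compared, 3 were lower in infarcted tissue in each genotype, Myl7 being at 49.0 and 10.6 RPKM in the non-infarcted libraries and at 0.290 and 0.183 RPKM in the infarcted ones. Nppa, the natriuretic peptide gene that stressed ventricle also expresses, was the exception and the most abundant of them, at 1715 and 2498 RPKM in wild type and at 1228 and 1805 RPKM in the other pair. Atrial tissue in the non-infarcted pieces and a difference with infarction cannot be told apart for Mybphl. Myom3, a myomesin of skeletal muscle, was at 1.10 and 0.457 RPKM and at 0.992 and 0.246 RPKM.

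The second question was how the libraries labelled Neil3-/- differed from wild type. In infarcted tissue 9 of the 10 genes were lower in the library labelled Neil3-/-, with a median log2 ratio of -0.50, beside 45.5% of 12464 genes below 0 and a median of 0.02 over all of them. None was 2-fold lower or higher, as were 0.241% and 0.249% of all genes. Myom2 was 1.80-fold (1.75 to 1.85), Actn2 1.75-fold (1.72 to 1.78), Flnc 1.59-fold (1.57 to 1.62), Tcap 1.51-fold (1.42 to 1.62) and Myoz2 1.51-fold (1.46 to 1.57) lower. Ldb3, Myom1, Ttn and Mybpc3 were between 1.17-fold and 1.33-fold lower. Nebl was the exception at 1.05-fold higher, with an interval of 0.956 to 1.15 that includes 1. The 13 cardiomyocyte reference genes had a median of -0.51 in the same comparison, all below 0, and 5 of the 10 scaffold genes lay above that median and 5 below.

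In non-infarcted tissue the genotypes were close. The log2 ratios of the 10 genes ran from -0.25 for Myom2 to 0.07 for Mybpc3, with a median of -0.09 and 8 of 10 below 0, beside 46.3% of 12226 genes. No gene of the 10 was 2-fold lower or higher, against 0.188% and 0.254% of all genes. Mybpc3 was 1.05-fold (1.04 to 1.06) and Ldb3 1.04-fold (1.02 to 1.06) higher in the library labelled Neil3-/-. The reference genes had a median of -0.09 as well.

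**Figure D5:**
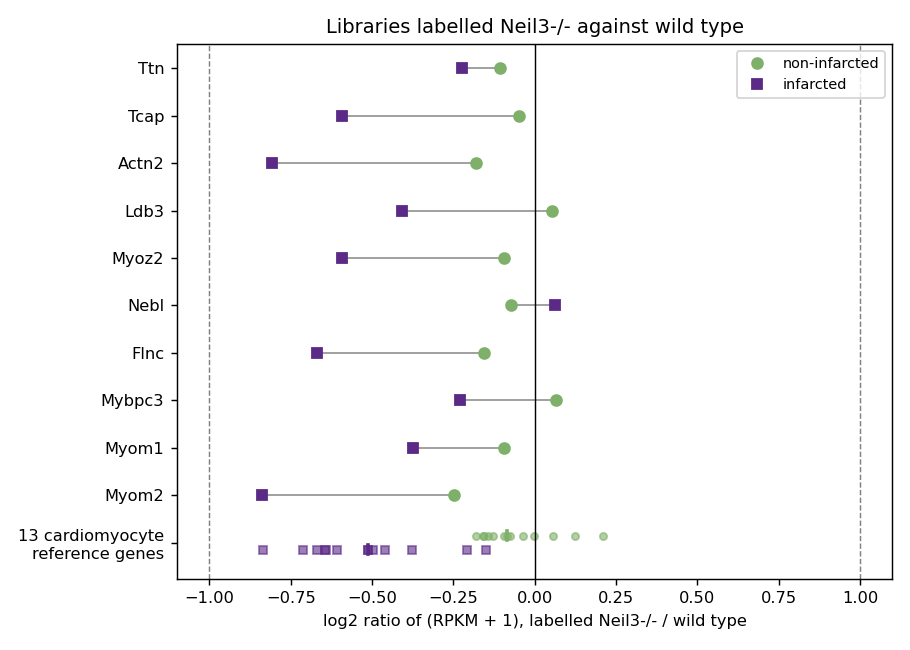
Log2 ratio of (RPKM + 1) between the libraries labelled Neil3-/- and wild type for each of the 10 genes and, in the lowest row, for 13 cardiomyocyte reference genes with their median as a bar; circles are non-infarcted and squares infarcted tissue, and dashed lines mark 2-fold. Circles lie between -0.25 and 0.07, and 9 of 10 squares lie left of their circle, from -0.84 (Myom2) to -0.22 (Ttn), with Nebl at 0.06.

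Taking the infarct ratio of the libraries labelled Neil3-/- minus that of wild type, 9 of the 10 genes were below 0, beside 50.3% of 12716 genes, and the median was -0.48. No gene reached 2-fold in this difference, as did 0.228% of all genes in the lower and 0.299% in the higher direction. On the scale of RPKM without the added 1, the difference in log2 ratio, with its counting interval, was largest for Actn2, at -0.63 (-0.66 to -0.60), and Myom2, at -0.60 (-0.65 to -0.55). It was -0.55 (-0.65 to -0.45) for Tcap and -0.52 (-0.55 to -0.48) for Flnc. Ttn had -0.12 (-0.14 to -0.10), the smallest of the 9. The 13 reference genes had a median difference of -0.45 with all 13 below 0. Each of these values rests on 4 single libraries, and the comparisons share them.

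In infarcted tissue 21 of 26 other Z-disc genes, 11 of 13 other M-band and giant protein genes and 7 of 8 titin spring genes were lower in the library labelled Neil3-/-, beside 45.5% of all genes. At 2-fold only 1 of them, Ankrd2, was lower. At 1.5-fold 4 of the 26 were lower and 2 higher, 2 of the 13 were lower and 5 of the 8 were lower, beside 1.55% lower and 1.51% higher over all genes. Pdlim3, a Z-disc partner of alpha-actinin, was higher in both libraries labelled Neil3-/-, at 43.3 against 20.1 RPKM in non-infarcted tissue (2.16-fold, 1.93 to 2.41) and at 34.3 against 17.3 RPKM in infarcted tissue (1.98-fold, 1.77 to 2.22). Its close relative Ldb3 was at 255 against 246 and at 91.6 against 122 RPKM. Xirp1, a gene of intercalated discs and Z-disc repair, was 1.90-fold (1.86 to 1.95) lower in the infarcted library labelled Neil3-/-, Speg, a kinase of striated muscle, 1.64-fold (1.57 to 1.71), and Hspb7, a small heat shock protein of the heart, 1.55-fold (1.53 to 1.57). Ankrd2 was 2.37-fold (1.76 to 3.24) lower there and Ankrd1 1.74-fold (1.72 to 1.76). Pdlim4, on the non-muscle side, was 1.49-fold (1.22 to 1.82) higher.

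Lastly, the genes whose pattern over the 4 libraries was nearest to that of the 10 were named, by the distance between log2(RPKM + 1) values centred over the libraries among 9628 other genes. Nearest to the median pattern were Usp13, a deubiquitinase (distance 0.026), Ndufb10, a subunit of respiratory complex I (0.042), Ndrg2 (0.049), Mfn1, a fusion protein of the outer mitochondrial membrane (0.054), and Gpr157 (0.055). For single genes the nearest were Myzap, a protein of the intercalated disc, for Ttn (0.048), Car14 for Tcap (0.12), Fam174b for Actn2 (0.034), Selenbp1 for Ldb3 (0.015) and Dsg2, a desmosomal cadherin, for Myoz2 (0.035). They were Mlip for Nebl (0.068), Gal3st3 for Mybpc3 (0.030), Mfn1 for Myom1 (0.023) and Smim5 for Myom2 (0.051). For Flnc the nearest was Tnfrsf12a, the receptor of the cytokine TWEAK (0.067), at 117 and 170.3 RPKM in wild type and 107 and 101 RPKM in the pair labelled Neil3-/-. With 4 libraries such likeness is a description of few values.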

How the data were processed

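Total RNA of the left ventricle was sequenced by the authors with Illumina library protocols, per the labels. The deposited counts are uniquely assigned reads per gene, per the file headers, and only genes with a read are listed, so an unlisted gene was taken as 0 reads. The deposited RPKM values were recomputed from reads, listed length and library total, and matched for all genes. The deposited coverage, in percent, was taken as the share of the listed length with a read. The submitters' processing notes name build mm9; the aligner, the read counter, strandedness and the gene annotation were not given in the sources used here.

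Samples were grouped by title. Log2 ratios of (RPKM + 1) were computed between single libraries, and 2-fold differences were counted over genes that reached 1 RPKM in a library of the comparison. No test across genes was run. Intervals at 95% are exact (Clopper-Pearson for read shares and ratios, Poisson for RPKM), except the interval of a difference of log2 ratios, which is a normal approximation. Reads without molecular identifiers are not independent molecules. Scaling factors came from edgeR 4.0.16 (TMM) and DESeq2 1.42.0 (median of ratios), other steps from Python 3.11.15 with scipy 1.17.1. The count and interval code was tested on simulated data.

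The members and lists were chosen with earlier results of these data known. Genes named from lists are up to 4 with the largest infarct ratio that both genotypes share in direction and up to 2 with the largest genotype ratio; some genes that this rule names are not reported here. Genes nearest in pattern were sought among those at 5 RPKM or more in a library, and long genes, relative pairs and motifs were chosen after values were seen. Pseudocount, filter, scaling and fold were varied. Protein sequences were not used here.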

Additional observations from a re-analysis of the deposited data

Results flagged for a closer look

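Flnc went in opposite directions with infarction in the genotypes. Its log2 ratio was 0.447 in the wild-type libraries and -0.066 in those labelled Neil3-/-, each with a counting interval that leaves out 0. Xirp1 did the same, at 0.192 and -0.492 in the same order. For Flnc the infarct ratio labelled Neil3-/- minus that of wild type was -0.513. The 13 cardiomyocyte reference genes had a median of -0.453 for the same difference, and 4 of them were lower than Flnc. With 1 library per group the difference between genotypes was not tested for Flnc or Xirp1. For Xirp1 the sign in wild type also depends on scaling, at -0.03 with TMM and -0.04 with median-of-ratios factors, whereas for Flnc it held at 0.22 and 0.21.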

How the results depend on the processing

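Pseudocounts of 0.1 and 5 RPKM, no filter or a filter at 5 RPKM, TMM, median-of-ratios and TPM scaling and a fold of 1.5 were tried. No member or named gene counted at 2-fold changed direction under them, which was fixed in advance. Pseudocount, filter and fold cannot change the sign of a ratio, and the scalings shifted ratios by far less than 2-fold. Of 400 recomputed log2 ratios of single members, 77 moved by more than counting error, 53 of them under TMM or median-of-ratios scaling (Ttn in wild type went from -1.30 to -1.52 with TMM). A count was held to have moved where the larger value was more than 1.5 times the smaller, or where only 1 of them was 0. A median difference was held to have moved where it shifted by more than counting error. Of 112 recomputed counts over the members and positions against the reference genes, 2 moved by these rules. They came with the fold of 1.5, by its own construction: 5 of the 10 were then lower in the infarcted library labelled Neil3-/- against wild type, and 2 differed in infarct ratio between genotypes, where none did at 2-fold. Over all genes, 1.55% were lower and 1.51% higher at 1.5-fold in that genotype comparison. For the difference of infarct ratios these shares were 1.55% and 1.12%. The count of members lower in wild-type infarcted tissue went from 6 to 9 under TMM and median-of-ratios scaling, which moved the median of all genes from 0.21 to 0.01 there. Over all settings this count ran from 5 to 9, which the rule for counts does not score as moved. Over all settings the median of the members ran from -1.26 to -1.01 for the wild-type pair and from -1.66 to -1.37 in the pair labelled Neil3-/-. Genes higher by 2-fold made up 6.21% of all genes in wild type and 8.2% in the pair labelled Neil3-/-, but 3.64% and 4.37% with TMM. The number of genes with a coverage fall in both genotypes was 18 and 5 with at least 50 and 200 reads per kb and 1 (Ttn) with a fall of 15 points, settings chosen after seeing the data. No paired analysis was possible because each group has 1 library. Depth limits the low genes: Ankrd2, Mybphl and Myom3 rest on at most 144 reads in a library.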
